A study of Mus musculus with 3 samples.

Results

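The 10 CC chemokine genes described here are Ccl2, Ccl3, Ccl4, Ccl5, Ccl7, Ccl8, Ccl9, Ccl11, Ccl17 and Ccl20, taken by name from a table of 43472 genes. Their levels were read in 3 RNA-seq libraries of primary fibroblasts, grown from collagenase-digested tail tips of C57BL/6 mice, scratched to make an in vitro wound and treated for 5 h with soluble micrograft (MG) and PD0325901. The MG is a cell-free extract of ground mouse skin, and PD0325901 inhibits MEK, the kinase that activates ERK. All 3 libraries are replicates of this MG + PD0325901 condition, so the inhibitor and the extract were present in each of them. The series calls them biological replicates, but no label gives the mouse, culture or day, and the age of the animals is not given in the sources used here. No untreated or MG-only sample was analysed here, so no effect of MG or of MEK inhibition was tested.

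CC chemokines are small secreted proteins, named for a pair of adjacent cysteines, that draw leukocytes along a gradient by binding G protein-coupled receptors. In wounded skin they are known for calling in monocytes, T cells and eosinophils, and fibroblasts are among their sources. Many of their genes are switched on by NF-kB after signals such as IL-1 or TNF, and many of their mRNAs are short-lived.

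Ccl2, Ccl7 and Ccl20 made up nearly all of the CC chemokine mRNA in these fibroblasts. Ccl2 and Ccl7, which both attract monocytes through CCR2, stood highest. Ccl20, the ligand of CCR6 on dendritic cells and T cell subsets, came next. Ccl5, Ccl9 and Ccl17 were present at far lower levels, and Ccl3, Ccl4, Ccl8 and Ccl11 were at or near the limit of detection. Values are normalized counts, that is, reads per gene divided by a size factor for each library, and a gene was taken as detected at 10 or more in every library. By this limit 6 of the 10 genes were detected, against 60.1% of the 20322 genes with reads. The libraries held between 17244505 and 27037783 reads on genes, of which the 10 members took 0.439%, 0.123% and 0.348% in replicates 1, 2 and 3.

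**Figure D1:**
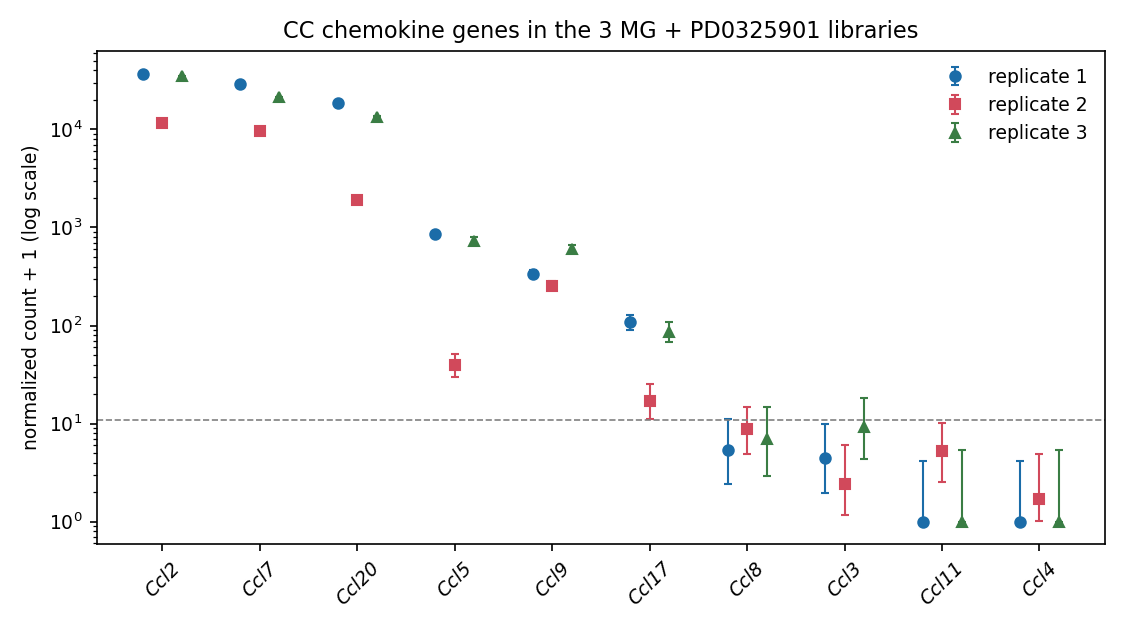
Normalized counts + 1 (log scale) of the 10 CC chemokine genes, 1 point per library, with bars for the 95% Poisson interval of the read count (counting error only) and a dashed line at a normalized count of 10. Replicate 2 lies below the other libraries for Ccl2, Ccl7, Ccl20, Ccl5, Ccl9 and Ccl17, from 11740 against at least 35007 for Ccl2 to 16.2 against at least 85.3 for Ccl17.

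Before the levels are set out, the libraries themselves were compared, because replicate 2 stood apart. For the 13154 genes averaging 10 or more normalized counts, replicate 2 was more than 2-fold below both other libraries for 4.87% and above both for 5.2%. The corresponding shares were 1.97% and 2.29% in replicate 1, and 2.3% and 1.28% in replicate 3. The highest library was more than 2-fold above the lowest for 26.5% of these genes and for all 6 members detected. All 9 fibroblast markers were detected in each library, but 3 of them stood apart in replicate 2. Lum, with 5073, 289 and 1164 normalized counts in replicates 1, 2 and 3, and Dcn, with 3661, 1723 and 3659, were more than 2-fold below both other libraries there, and Thy1, with 2031, 15760 and 1652, was above both. Of 6 endothelial markers only Egfl7 was detected. Their summed level of 90.3, 244 and 55.7 was highest in replicate 2 through Tek, at 6.95, 185 and 2.37. Egfl7 was highest in replicate 1, as were Pecam1, with 11, 5 and 2 reads, and Kdr, with 5, 2 and 0. The defining marker Cdh5 had at most 1 read, and Tie1 had none. The keratins Krt5, Krt14, Krt15 and Krt1, which define keratinocytes, did not exceed 2.37 normalized counts in any library, whereas Krt10 was detected, with 80.8, 39.5 and 32.0. Of 8 keratinocyte markers 3 were detected, Krt10, Dsp and Sfn, with summed levels over the list of 1756, 443 and 1625 normalized counts in replicates 1, 2 and 3, most of it Sfn. This sum was lowest in replicate 2, as the detected chemokines were, while Krt10 and Dsp were lowest in replicate 3. The part of any of these markers in the chemokine levels was not tested. Of 15 leukocyte markers, 3 were detected, Lyz2, Csf1r and Cd68. The summed level over the list was 234, 311 and 926 normalized counts in replicates 1, 2 and 3. The pan-leukocyte gene Ptprc did not exceed 2 reads, and Cd3e and S100a9 had none. In bulk samples such as these, fewer cells of a type and less RNA per cell cannot be told apart.

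Of the monocyte attractants, Ccl2 encodes MCP-1 and lies on chromosome 11 from 82035571 to 82037453 (GRCm38, plus strand, 3 exons). Its normalized count was 37108 in replicate 1, 11740 in replicate 2 and 35007 in replicate 3, averaging 27952 ± 14079 (SD, n = 3). Replicates 1 and 3 lay within 1.06-fold of each other, and replicate 2 lay 2.98-fold below the nearer of them. Without replicate 2 the mean was 36057 normalized counts. An antisense gene, Gm17268, overlaps Ccl2 in the annotation and had 0 normalized counts in all 3 libraries. Ccl7, which encodes MCP-3, starts 8.26 kb beyond the end of Ccl2 on the same strand, at 82045712, and ends at 82047525. Its normalized count was 28777 in replicate 1, 9542 in replicate 2 and 21215 in replicate 3, averaging 19845 ± 9690 (SD, n = 3), or 24996 without replicate 2. Replicate 2 was again the lowest, 2.22-fold below replicate 3. None of the 50-base stretches of the Ccl2 or Ccl7 coding transcript occurred in the transcript of another gene, so no exactly matching read of this length belonged to both.

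Ccl20 (chromosome 1, 83116766 to 83119167, plus strand) reached a normalized count of 18666 in replicate 1, 1895 in replicate 2 and 13370 in replicate 3, averaging 11310 ± 8573 (SD, n = 3). The mean without replicate 2 was 16018. Replicate 2 lay 7.06-fold below replicate 3, while replicates 1 and 3 differed 1.40-fold. Ccl5, or RANTES, which attracts T cells and monocytes, spans positions 83525778 to 83530518 of chromosome 11 on the minus strand. Its normalized count was 851, 38.8 and 735 in the same order of libraries, averaging 542 ± 439 (SD, n = 3), or 793 without replicate 2. Its value in replicate 2 rested on 55 reads, with a 95% Poisson interval of 29.2 to 50.4 normalized counts, and lay 19.0-fold below replicate 3. Among the detected members Ccl5 had the widest spread, with an SD of 2.49 on the log2 scale.

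Ccl17, or TARC, a ligand of CCR4 on T cells, is on chromosome 8 from 94810453 to 94812036 (plus strand). Ccl17 had 108, 16.2 and 85.3 normalized counts in replicates 1, 2 and 3, from 124, 23 and 72 reads. Replicate 2 was 5.27-fold below replicate 3. Replicates 1 and 3 could not be separated at this depth (two-sided exact binomial test on reads, adjusted p = 0.205). Ccl9, a ligand of CCR1 on myeloid cells, is at 83572919 to 83578636 of chromosome 11 (minus strand). Its normalized count was 335, 253 and 602 in the same order, averaging 397 ± 183 (SD, n = 3). Replicate 2 was the lowest here too, but only 1.33-fold below replicate 1, and the gap between replicates 1 and 3 was larger, at 1.80-fold. Ccl9 was the exception among the detected members in being highest in replicate 3, where the summed leukocyte markers were also highest. Lyz2, a myeloid gene of that list, had 123, 62.7 and 601 normalized counts and made up most of the sum in replicate 3. The other detected markers of the list were highest in replicate 2, Csf1r with 57.3, 179 and 161 and Cd68 with 22.6, 33.1 and 27.3. Of the markers with reads but not detected, Laptm5, Adgre1, Fcer1g, Tyrobp, S100a8, Cd52 and Itgam were highest in replicate 3. Laptm5 had 1.74, 4.93 and 36.7 normalized counts, and Adgre1 had 0, 6.34 and 23.7. Ptprc and Cd74 were highest in replicate 1. The part of leukocyte RNA in the Ccl9 level was not tested.

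The other members had few reads. Ccl3, or MIP-1alpha, a myeloid chemokine, had 3.47, 1.41 and 8.30 normalized counts in replicates 1, 2 and 3, from 4, 2 and 7 reads. Ccl8, or MCP-2, had 4.34, 7.75 and 5.93 normalized counts, and was the only member with at least 1 read in every library whose lowest library was not replicate 2. The 3 pairs of libraries did not differ in Ccl8 beyond counting error (exact binomial test, adjusted p = 0.470, 0.909 and 0.882 for replicates 1 and 2, 1 and 3, and 2 and 3). Ccl11, or eotaxin, the eosinophil attractant, had 6 reads in replicate 2, or 4.23 normalized counts with a 95% Poisson interval of 1.55 to 9.20. It had none in replicates 1 and 3, where a count of 0 allows up to 2.61 and 3.56 normalized counts by the limit of 3 reads, and up to 3.20 and 4.37 by the two-sided 95% Poisson interval. Ccl4, or MIP-1beta, had 1 read in replicate 2 and none elsewhere. Intervals and limits of this kind cover counting error only, since the reads carried no molecular identifiers.

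Reads per gene grow with transcript length, so levels of different members were compared per kb of exonic length. On this scale Ccl7 had 24775 ± 12098 and Ccl2 had 24562 ± 12371 normalized counts per kb (SD, n = 3), a gap far smaller than either SD. Ccl7 was the higher of the pair in replicates 1 and 2, and Ccl2 in replicate 3. The order of this pair also depended on the gene model. Ccl2 has an exonic length of 1138 bases and a coding transcript of 813, while Ccl7 has 801 for both. Per kb of the coding transcript, Ccl2 had 34381 ± 17317 and Ccl7 24775 ± 12098. Ccl20 followed in each library, with 7959 ± 6033 per kb of exonic length. Ccl5 had 564 ± 458, or 1018 ± 826 per kb of the coding transcript. Ccl17, with 136 ± 92.8 per kb of exonic length, and Ccl9, with 130 ± 59.9, could not be put in order. In replicate 2 Ccl5 was at 40.4 per kb, under the 83.1 of Ccl9, so the order of these 2 genes was opposite to that in replicates 1 and 3.

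The proportions between members were then followed from library to library, using the level of Ccl2 in the same library as the reference. Ccl7 kept a narrow ratio to Ccl2, with 1.10, 1.15 and 0.861 per kb in replicates 1, 2 and 3. Ccl20 did not, with 0.403, 0.129 and 0.306, and for Ccl5 the ratio was 0.0272, 0.00391 and 0.0249. For Ccl17 it was 0.00642, 0.00306 and 0.00540. Ccl20, Ccl5 and Ccl17 were thus lower in replicate 2 by a larger factor than Ccl2 and Ccl7 were. Relative to Ccl2, Ccl5 was 6.95-fold higher in replicate 1 and 6.36-fold higher in replicate 3 than in replicate 2. For Ccl9 the ratio was highest in replicate 2, at 0.00805, against 0.00338 and 0.00643 in replicates 1 and 3. These ratios do not depend on how the libraries were scaled.

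**Figure D2:**
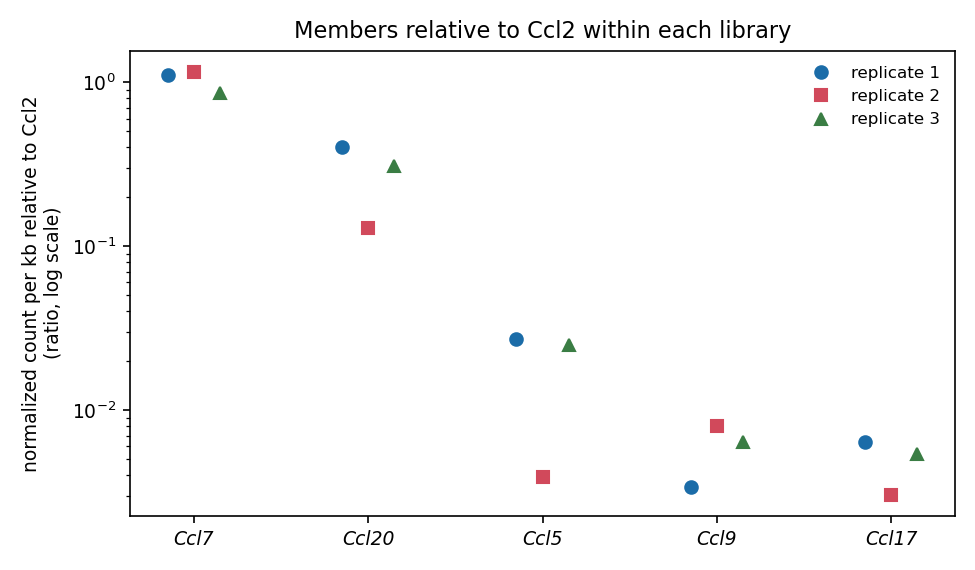
Normalized counts per kb of 5 detected members divided by that of Ccl2 in the same library (ratio, log scale), 1 point per library. Ccl7 stays between 0.861 and 1.15, while Ccl20, Ccl5 and Ccl17 are lowest in replicate 2, at 0.129, 0.00391 and 0.00306.

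Each detected member was next placed among all genes by its log2 ratio, the log2(normalized count + 1) in 1 library minus the mean of the other 2. In replicate 2 this was -4.32 for Ccl5, -3.06 for Ccl20, -2.49 for Ccl17, -1.62 for Ccl2, -1.37 for Ccl7 and -0.83 for Ccl9. The median of these 6 values was -2.06, beside 0.02 over all 13154 genes. Only 10 of the 13154 genes had a lower log2 ratio in replicate 2 than Ccl5, and 50 a lower one than Ccl20. Replicate 2 was more than 2-fold below both other libraries for 5 of the 6 members, Ccl9 being the exception, against 4.87% of all genes. It was the lowest library for 6 of 6, against 37.5% of all genes. No member lay more than 2-fold below both others in replicate 1 or in replicate 3, where 1.97% and 2.3% of all genes did. The members were chosen with earlier results of these data known, so these counts are descriptions.

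**Figure D3:**
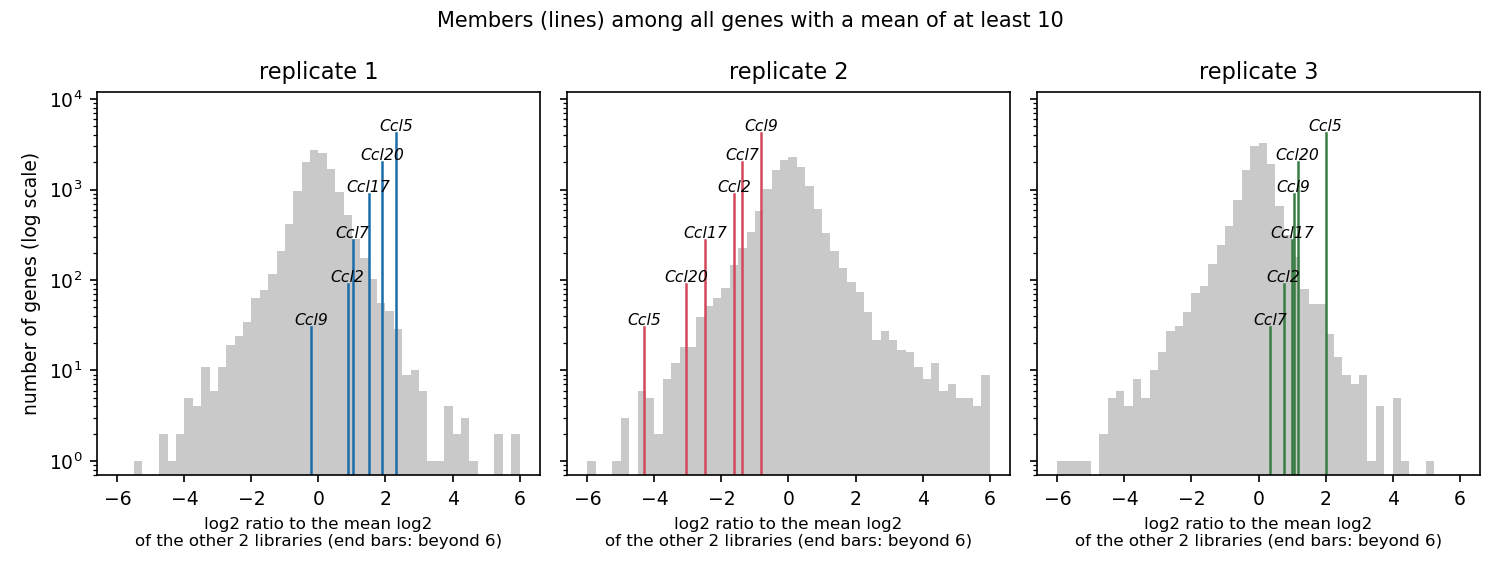
Number of genes (log scale) by log2 ratio of a library to the mean log2 value of the other 2, for 13154 genes with a mean of at least 10 normalized counts, with the 6 detected members as lines whose heights carry no value. In replicate 2 all 6 lines lie below 0, from -4.32 for Ccl5 to -0.83 for Ccl9.

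Each library was also set against each other one with an exact binomial test (two-sided) on the reads, with p-values adjusted over all genes tested. Such tests compare libraries and not conditions. Replicates 1 and 2 differed in 6 of 7 members tested, all higher in replicate 1, and in 5 of them by more than 2-fold, against 68.4% and 19.8% of 14771 genes. Of all genes tested in this pair, 32.7% were higher in replicate 1 and 35.7% in replicate 2, and more than 2-fold differences were 10.6% and 9.27% in these directions. Replicates 2 and 3 differed in 6 of 7, all higher in replicate 3 and all by more than 2-fold, against 62% and 16.1% of 14344 genes. Here 30% of all genes were higher in replicate 3 and 32% in replicate 2, and more than 2-fold differences were 6.88% and 9.2% in these directions. Replicates 1 and 3 differed in 5 of 8 members, against 51.1% of 14316 genes, and in none by more than 2-fold, against 8.78%. Of these, 4 members were higher in replicate 1, as were 25.1% of all genes (5.37% by more than 2-fold), and Ccl9 was higher in replicate 3, as were 26.1% (3.41% by more than 2-fold). With Ccl2, Ccl7 and Ccl20 each at 2689 or more reads in every library, differences well below 2-fold pass such a test. Over the 3 libraries, the median SD of the 6 detected members was 1.19 on the log2 scale, beside 0.32 for the 13154 genes. Over replicates 1 and 3 alone that of the members was 0.27, and the value for all genes was not computed.

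In the genome, 8 of the 10 members lie on chromosome 11, in 2 groups separated by about 1220 kb from the end of Ccl1 to the start of Ccl5. In the first group Ccl2, Ccl7, Ccl11, Ccl12 and Ccl8 follow each other on the plus strand. Ccl11 starts 10.3 kb beyond Ccl7, and was not detected, although Ccl7 and Ccl2 on one side of it had the highest levels of the family. Ccl12, which is not among the 10 members, had 7 reads in replicate 1 and none in the other libraries. In the second group Ccl5 and Ccl9 were detected, and Ccl6, Ccl3 and Ccl4 were not. Ccl6, a myeloid gene 9.25 kb beyond Ccl9, had 9.55, 1.41 and 15.4 normalized counts, the same order of libraries as Ccl3.

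**Figure D4:**
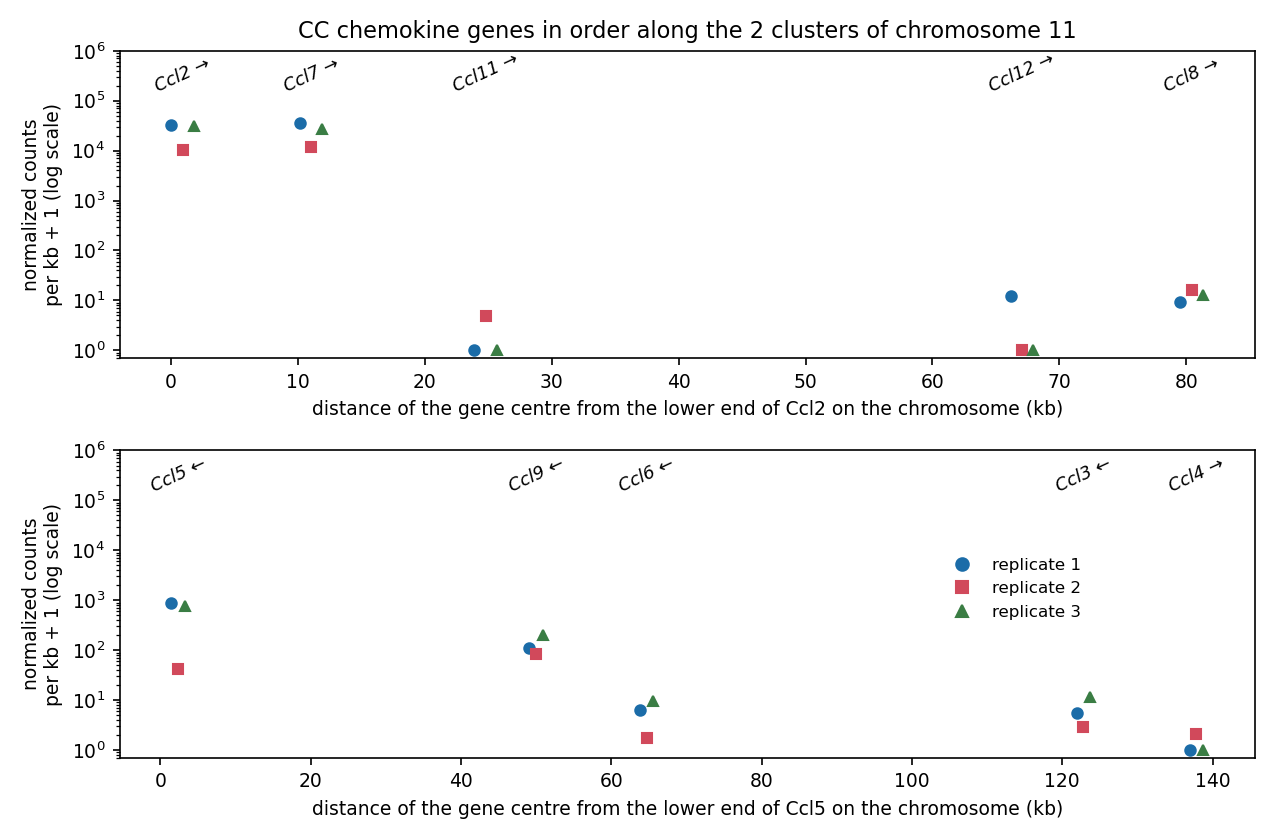
Normalized counts per kb + 1 (log scale) of CC chemokine genes against the distance of the gene centre in kb from the lower end of Ccl2 (top) or Ccl5 (bottom), with an arrow for the strand and points of the 3 libraries set slightly apart sideways. Ccl2 and Ccl7 stand at 10316 or more per kb in every library, while Ccl11, within 10.3 kb of Ccl7, does not exceed 3.91.

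Upstream sequences were examined for the members with an entry in the RefSeq promoter table (GRCm38.p6), which were Ccl3, Ccl8, Ccl9, Ccl17 and Ccl20. There was no entry for Ccl2, Ccl4, Ccl5, Ccl7 or Ccl11. The 250 bases before the start were searched on both strands for the NF-kB consensus, the AP-1 motif TGANTCA, the C/EBP motif TTGCNNAA and the TATA box TATAAA. Ccl20 and Ccl9 held an NF-kB match, as did 7.25% of 32851 promoter windows of the same length. Ccl9 alone held an AP-1 match, found in 6.75% of windows, and no member held the C/EBP motif, found in 9.56%. The NF-kB and AP-1 matches did not overlap, and TATAAA (12.4% of windows) was found in Ccl8 and Ccl9. The windows of Ccl20 (chr1:83116516-83116765, plus strand), Ccl9 (chr11:83578637-83578886, minus strand) and Ccl17 (chr8:94810203-94810452, plus strand) are shown 5′ to 3′ because these detected members differ widely in replicate 2. Capitals mark NF-kB and AP-1 matches.
Ccl20: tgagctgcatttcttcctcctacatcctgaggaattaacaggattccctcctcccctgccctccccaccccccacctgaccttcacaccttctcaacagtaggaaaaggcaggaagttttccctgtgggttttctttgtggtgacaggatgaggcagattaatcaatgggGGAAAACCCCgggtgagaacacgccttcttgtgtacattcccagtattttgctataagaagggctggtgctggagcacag
Ccl9: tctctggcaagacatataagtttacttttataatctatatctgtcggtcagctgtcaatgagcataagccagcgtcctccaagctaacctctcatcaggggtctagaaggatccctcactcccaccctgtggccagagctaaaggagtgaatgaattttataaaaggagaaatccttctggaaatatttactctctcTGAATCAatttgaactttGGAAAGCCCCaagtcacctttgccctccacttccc
Ccl17: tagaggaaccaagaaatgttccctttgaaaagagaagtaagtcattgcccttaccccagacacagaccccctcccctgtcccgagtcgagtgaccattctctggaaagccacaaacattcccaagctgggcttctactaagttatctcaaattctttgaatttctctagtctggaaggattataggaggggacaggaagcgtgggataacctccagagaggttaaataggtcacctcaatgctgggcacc
The NF-kB match of Ccl20 begins 80 bases before the start and that of Ccl9 begins 35 bases before it, both read on the opposite strand. Replicate 2 lay 7.06-fold below the nearer library for Ccl20 and 1.33-fold for Ccl9, which both hold a match, and 5.27-fold for Ccl17, which holds none. Matches are descriptions of letters and not sites of binding, and their part in the CC chemokine levels was not tested.

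Short-lived cytokine mRNAs often carry the pentamer ATTTA, the core of AU-rich elements bound by decay proteins, in the 3′ UTR. In GENCODE M21 transcripts it occurred 9 times in Ccl20, 5 times each in Ccl3, Ccl9 and Ccl11, 2 times each in Ccl4 and Ccl7 and once in Ccl2. Ccl5, Ccl8 and Ccl17 had none. At least 1 pentamer was present in 7 of the 10 members and in 61.6% of 20636 3′ UTRs, and the median density was 4.12 per kb in the members and 1.12 per kb in all. For the 14428 3′ UTRs in the length range of the members, the share was 63.3% and the median density 1.26 per kb. The stretch of 30 bases with most pentamers is given for the most abundant members, Ccl20 (chr1:83119059-83119088), Ccl7 (chr11:82047254-82047283) and Ccl2 (chr11:82037205-82037234), all on the plus strand of GRCm38, with the pentamers in capitals.
Ccl20: aagatATTTAatgttctgtttATTTAattg
Ccl7: tattaatatttttATTTAattagccatgta
Ccl2: taatattaaacttATTTAacttattgatgt
Replicate 2 was the lowest library for all 6 detected members. Of these, Ccl5 and Ccl17 had no pentamer, Ccl2 had 1, Ccl7 had 2, Ccl9 had 5 and Ccl20 had 9. All 7 genes listed for mRNA decay or stability were detected, and in replicate 2 none lay more than 2-fold from both other libraries. Zfp36, whose product tristetraprolin binds AU-rich elements, had 1147, 1078 and 901 normalized counts in replicates 1, 2 and 3. Zc3h12a, which encodes the RNase Regnase-1, had 1527, 1533 and 3002, highest in replicate 3. The part of mRNA decay in the CC chemokine levels was not tested.

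The remaining 14 CC chemokine genes added little. Of these, 8 had no reads and 2, Ccl25 and Ccl27a, were detected, with 71.5 ± 26.1 and 40.8 ± 5.85 normalized counts (SD, n = 3). Ccl25 overlaps the opposite-strand gene Elavl1, and 66.4% of the 50-base stretches of Ccl27a occur in transcripts of other genes, so both values are uncertain. The zeros of Ccl19, Ccl21a, Ccl21b and Ccl27b are uncertain for the same reason, as 59.1%, 71.6%, 100% and 98.1% of their stretches were shared and only uniquely mapped reads were counted. That of Ccl21c could not be checked, as no gene model of that name was found in the annotation used. The 10 members held 99.8%, 99.6% and 99.8% of the summed normalized counts of all 24 genes in replicates 1, 2 and 3.

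Receptors for these ligands were nearly absent. None of the 12 CC chemokine receptor genes was detected, and 5 of them, Ccr2, the receptor for Ccl2 and Ccl7, and Ccr6, that for Ccl20, among them, had no reads in any library. Of the atypical receptors, which bind chemokines without G protein signalling, Ackr2, the scavenger of CC chemokines, had 2 to 4 reads per library. Ackr3 was the only one detected, with 584, 1219 and 741 normalized counts, and its known chemokine ligands are of the CXC family. Syndecans, heparan sulfate proteoglycans that hold chemokines at the cell surface, were all 4 detected. Sdc4 had 18785, 6933 and 24403 normalized counts, lowest in replicate 2, and Sdc1 had 6006, 13261 and 6558, highest there.

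**Figure D5:**
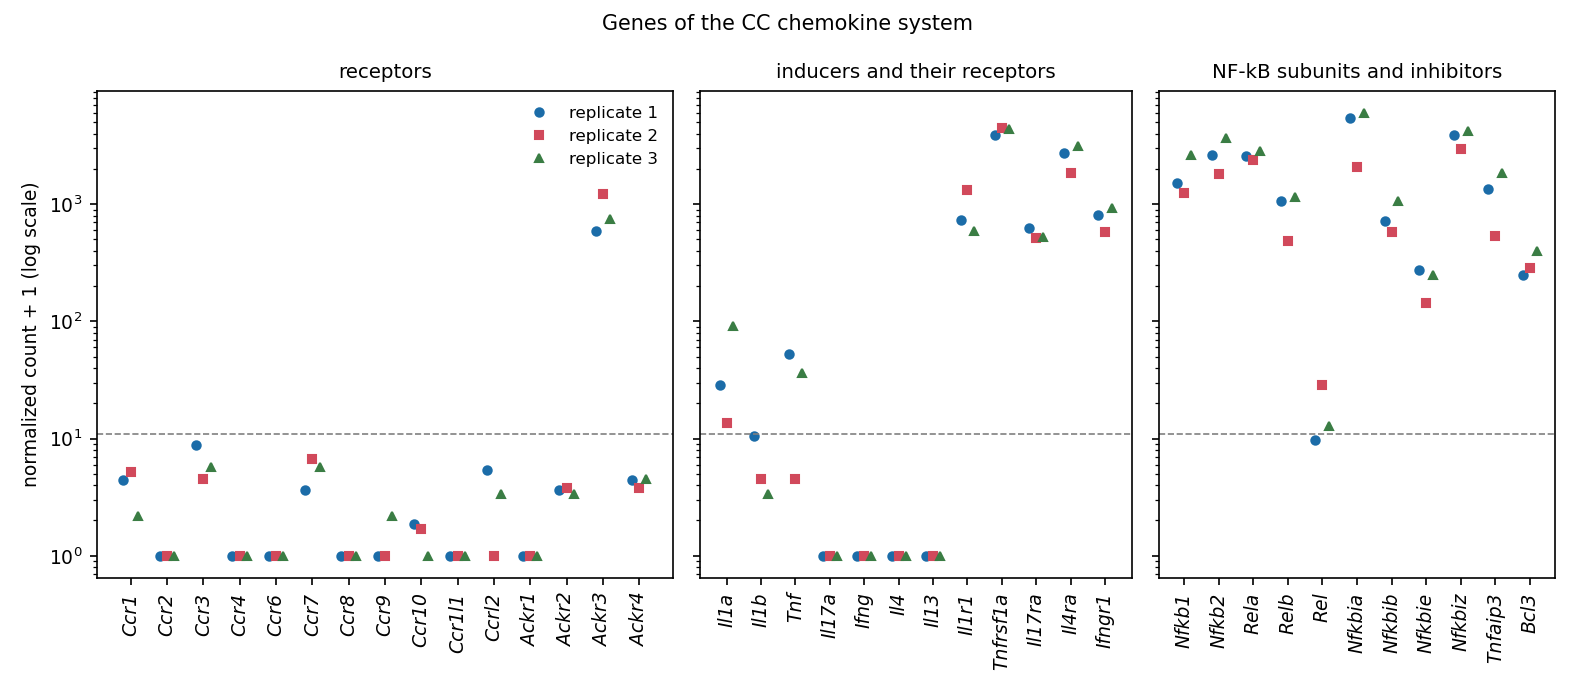
Normalized counts + 1 (log scale) of receptors, of inducing cytokines with their receptors and of NF-kB genes, 1 point per library, with a dashed line at a normalized count of 10. Among the receptors shown at left only Ackr3 lies above the line in every library, while Tnf, Nfkbia and Tnfaip3 are lowest in replicate 2.

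Cytokines known to induce CC chemokines were low. Tnf had 52.1, 3.52 and 35.6 normalized counts in replicates 1, 2 and 3, from 60, 5 and 30 reads, and Il1a had 27.8, 12.7 and 90.1. Both were more than 2-fold below the other libraries in replicate 2. Il1b did not follow them, with 9.55, 3.52 and 2.37 normalized counts from 11, 5 and 2 reads, lowest in replicate 3. Il17a, Ifng, Il4 and Il13 had no reads, whereas the receptor genes Il1r1, Tnfrsf1a, Il17ra, Il4ra and Ifngr1 were all detected. Il1r1 had 735, 1309 and 584 normalized counts, highest in replicate 2. Among 11 NF-kB genes, replicate 2 was the lowest library for 9, against 37.5% of all genes. Relb, Nfkbia and Tnfaip3 were more than 2-fold below both other libraries there, as were 4.87% of all genes. Rel was above both, as were 5.2%, but it had only 10, 39 and 10 reads. Nfkbia, which encodes the inhibitor IkBalpha and is itself an NF-kB target, had 5462, 2068 and 6037 normalized counts. The subunit gene Rela had 2553, 2374 and 2848. The part of any of these genes in the CC chemokine levels was not tested.

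In other chemokine families replicate 2 was also the lowest library for most genes. Of 10 CXC and other chemokine genes averaging 10 or more normalized counts, it was the lowest for 9, against 37.5% of all genes. It was more than 2-fold below both others for 8, and above both for Cxcl12, against 4.87% and 5.2% of all genes. Among the 8, Cxcl15 rested on 4 reads in replicate 2. Cxcl1, with 12229, 6635 and 22360 normalized counts, and Cx3cl1 were highest in replicate 3, Cxcl12 in replicate 2 and the others in replicate 1. Likeness to Ccl2, the member with the highest mean, was measured as the distance between centred log2 values over the 3 libraries, for the 9991 genes averaging 100 or more normalized counts. The nearest genes outside the lists were Plscr1, Spint2, Pax9, Tnfrsf11b and Rspo3, at distances of 0.03 to 0.08. Cxcl16 and Cxcl5 were sixth and seventh in this order, Ccl7 came 84th with a distance of 0.32, and Ccl5 came 9467th with 2.20. With 3 libraries, likeness of this kind is easily reached by many genes.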

How the data were processed

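RNA-seq was analysed from 3 libraries of 1 condition, MG + PD0325901 at 5 h. The authors aligned 50 bp single-end reads of stranded libraries to mm10 with TopHat2 2.0.13, kept unique reads, counted them per gene with HTSeq 0.5.3p3 and applied DESeq. Which annotation and which strand option HTSeq used is not given in the sources used here. The values deposited by the authors are a signal per gene, read counts divided by 1 size factor per library (normalized counts). A further 3 columns of per-sample values could not be assigned to a sample and were not used.

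Dividing by the smallest step of a library gave whole reads for 100% of its values (tolerance 0.05), so reads were recovered by division: 22540518, 27037783 and 17244505 in replicates 1, 2 and 3. A floor of 3 reads equalled 2.61, 2.11 and 3.56 normalized counts. No test between conditions was possible. Pairs of libraries were compared by exact binomial tests (doubled smaller tail) on genes whose 2 libraries together held 10 reads or more. Benjamini-Hochberg adjusted p-values were read at 0.05. Log2 values used a pseudocount of 1. Gene models, lengths and transcripts came from GENCODE M21 (GRCm38), and promoters from RefSeq. TMM factors came from edgeR 4.0.16 in R 4.3.3, and all other steps used scipy 1.17.1, pandas 2.3.3 and numpy 2.4.6 under Python 3.11.15. Alternatives were other scalings, pseudocounts, minimum levels and fold limits, lengths, and each replicate left out. Simulated data were used to test only the recovery of reads, the 2-fold rule and the binomial test. Genes named were the members, the lists of related genes and markers, and the 5 genes nearest to the highest member. The members and lists were chosen with earlier results of these data known. Values of some listed genes are not reported here. P-values measure only counting error within these libraries.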

Additional observations from a re-analysis of the deposited data

How the results depend on the processing

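No paired analysis was possible because all 3 libraries belong to the same condition and there is no other group to pair them with. The 6 members detected became 8 with a minimum of 1 normalized count and 4 with a minimum of 100, and stayed 6 under both other scalings and without any 1 replicate. The 5 members more than 2-fold below both others in replicate 2 stayed 5 in every setting except a mean of at least 100, where 4 were left because Ccl17 was no longer counted. The median SD of 1.19 ranged from 0.27 to 1.53 when replicates were left out singly, the lowest being without replicate 2. Requiring a 2-fold difference took the members called between replicates 1 and 3 from 5 to 0. Per kb of exonic length Ccl2 moved from rank 1 to 2, Ccl7 from 2 to 1, Ccl9 from 5 to 6 and Ccl17 from 6 to 5, and per kb of the coding transcript, an alternative added after the data were seen, Ccl9 was again 6 and Ccl17 5 while Ccl2 and Ccl7 stayed 1 and 2. Of the 18 recomputed log2 ratios of replicate 2, none changed sign, and Ccl5 at -4.04 and Ccl17 at -2.01 with a pseudocount of 10 moved most. With equal library totals no mean of a detected member moved by more than 1.32%. Depth limited Ccl3, Ccl4, Ccl8 and Ccl11, which had at most 11 reads in any library.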
